A study of Mus musculus with 9 samples.

Results

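A set of 10 genes that are widely used to mark the passage of an epithelial cell to a mesenchymal state was described in AML12 cells, a hepatocyte line of mouse liver. These members were chosen by name, and their gene identifiers were matched through the GENCODE M1 annotation. Of the 10, 8 were found in both deposited tables, among 13643 genes found in either. *Acta2* and *Twist1* were in neither. The study compared control cells (3 libraries) with cells infected for 5 days with shRNA1 (3 libraries) or shRNA2 (3 libraries). Both are lentiviral hairpins against *Srrm2*, a scaffold gene of nuclear speckles. All cells were grown in medium with 10% serum, an insulin, transferrin and selenium supplement and 0.1 μM dexamethasone. The line is a single established culture, so separate cultures or infections of it are the most that the libraries can stand for.

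In an epithelial cell, E-cadherin junctions and keratin filaments hold neighbours together. During a mesenchymal transition, transcription factors of the Snail, Zeb and Twist families bind E-box elements and repress E-cadherin, while N-cadherin, vimentin and, in contractile cells, smooth muscle actin and transgelin are made. In liver some of these genes also mark activated stellate cells and portal fibroblasts, and cultured hepatocytes can acquire some of the set.

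The values used are the authors' mean normalized counts, 1 for each gene in each table. The first mean pools 3 control and 3 shRNA1 libraries and the second pools 3 control and 3 shRNA2 libraries. A pooled mean carries no replicate error and does not separate knockdown from control cells, so the values below are levels over all 6 libraries of a table, with no test, and no change against control cells was computed. The means summed to 6144608 in the table with shRNA1 and 6393456 in that with shRNA2, and the lowest listed means were 1.56 and 1.92. *Srrm2* itself had pooled means of 3428 and 3759, which do not show its depletion because the controls are included. For levels of different genes, the mean was divided by the length of all exons of the gene, in kb.

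Among the structural markers, *Vim* stood near the top of all genes and *Tagln* near the bottom. *Vim* (ENSMUSG00000026728.3) encodes the intermediate filament protein vimentin (coordinates on mm9: chromosome 2, + strand, 13495554 to 13504453). Its pooled mean was 4378 normalized counts with shRNA1 libraries and 4359 with shRNA2 libraries. Per kb of exon these were levels of 1875 and 1867, at rank 87 of 13424 genes and rank 94 of 13478 genes. *Vim* was therefore within the top 0.648% and 0.697% of listed genes.

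*Tagln* (ENSMUSG00000032085.4; chromosome 9, − strand, 45737711 to 45744141) encodes transgelin, an actin-binding protein of smooth muscle and activated fibroblasts. Its pooled means were 3.27 and 3.34 normalized counts, or 2.06 and 2.11 per kb, so that the level of *Vim* was 910.0 and 886 times that of *Tagln* in the same libraries. At a level this close to the lowest listed means, *Tagln* RNA was barely detected. *Acta2* (chromosome 19, − strand, 34315580 to 34329826), the smooth muscle α-actin gene, was not listed, and no level is given for it. Actin genes have similar coding sequences, and counts of uniquely mapped pairs can lose reads from such genes. Whether this affected *Acta2* was not tested. The cytoplasmic actin genes *Actb* and *Actg1* were at ranks 5 and 48 in the table with shRNA1.

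*S100a4* (ENSMUSG00000001020.7; chromosome 3, + strand, 90407692 to 90409967) encodes a small calcium-binding protein, also called fibroblast-specific protein. Its pooled means were 17.9 and 16.8 normalized counts. It has only 587 bases of exon, so this corresponds to 30.6 and 28.5 per kb, at rank 7807 and 8176. *S100a4* was thus a gene of middling level, in contrast to *Vim*.

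*Cdh2* (ENSMUSG00000024304.8; chromosome 18, − strand, 16747386 to 16967755), which encodes N-cadherin, was the other abundant member. Its pooled means were 3624 and 3681 normalized counts. These gave levels of 449 and 456 per kb, at rank 567 and 570, within the top 4.22% and 4.23% of genes. *Cdh1*, the E-cadherin gene, was expressed at the same order of magnitude, with pooled means of 2453 and 2649 and levels of 536 and 579 per kb. Which cadherin ranked higher depended on the length used. Over all exons the level of *Cdh1* was 1.19 and 1.27 times that of *Cdh2*, whereas over the longest transcript of each gene the level of *Cdh2* was 1.35 and 1.27 times that of *Cdh1*. RNAs of both cadherin genes were therefore abundant in the same pool of libraries, and these values do not order them. Whether the same cells carry both RNAs cannot be read from bulk libraries, in which fewer cells of a type and less RNA per cell also cannot be told apart.

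**Figure D1:**
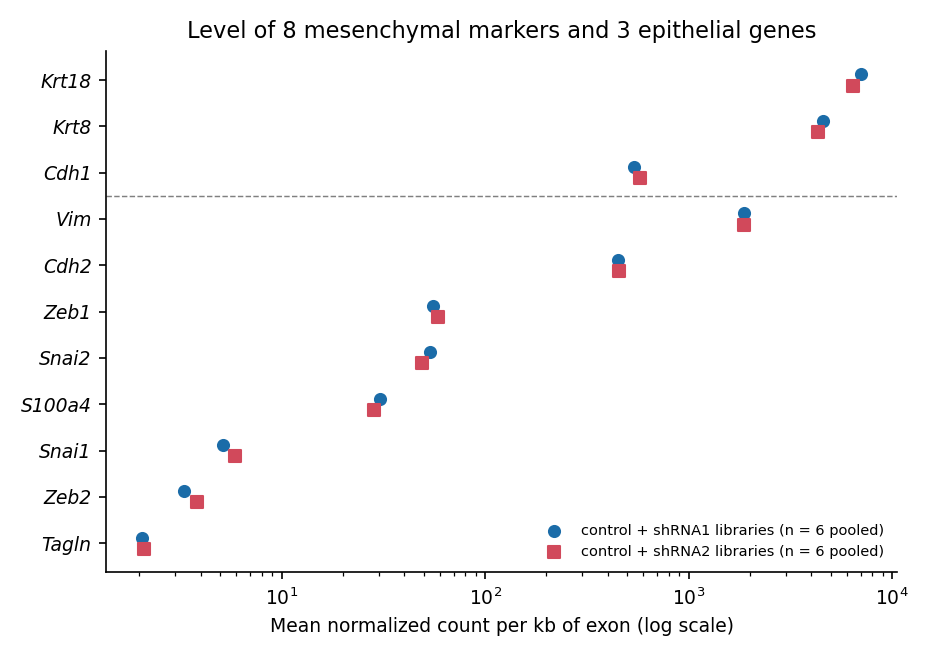
Mean normalized count per kb of exon (horizontal, log scale) of the 8 listed mesenchymal markers, below the dashed line, and of *Cdh1*, *Krt8* and *Krt18*, above it. Circles are the authors' means over 3 control and 3 shRNA1 libraries and squares those over 3 control and 3 shRNA2 libraries, with no error bars since no value per library was used; *Vim*, at 1875 and 1867, and *Cdh2*, at 449 and 456, stand apart from the other 6 markers.

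The transcription factors of the set were expressed unevenly, with *Zeb1* well above *Zeb2* and *Snai2* well above *Snai1*. *Zeb1* (ENSMUSG00000024238.5; chromosome 18, + strand, 5591858 to 5775465), a zinc finger and homeobox repressor, had pooled means of 536 and 567 normalized counts. Its long exons, 9712 bases in all, reduce this to 55.2 and 58.4 per kb, at rank 5832 and 5806. *Zeb2* (ENSMUSG00000026872.8; chromosome 2, − strand, 44839154 to 44972915), its relative, had pooled means of 51.0 and 58.8 normalized counts over 15368 bases of exon, or 3.32 and 3.83 per kb. The level of *Zeb1* was 16.6 and 15.3 times that of *Zeb2*.

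*Snai2* (ENSMUSG00000022676.6; chromosome 16, + strand, 14705945 to 14709488), which encodes the zinc finger repressor Slug, had pooled means of 109 and 99.0 normalized counts. Its levels of 53.4 and 48.7 per kb were the nearest among the members to those of *Zeb1*. *Snai1* (ENSMUSG00000042821.7; chromosome 2, + strand, 167363695 to 167368314), the Snail gene, had pooled means of 8.30 and 9.51 normalized counts, or 5.12 and 5.87 per kb. *Snai2* was thus 10.4 and 8.30 times as abundant as *Snai1*, whose pooled means were both under 10. *Snai1* ranked 11317 of 13424 genes in the first table and 11228 of 13478 in the second.

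*Twist1* (chromosome 12, + strand, 34642536 to 34644682), a basic helix-loop-helix factor, was not listed. Its relative *Twist2* was listed with pooled means of 17.1 and 18.3 normalized counts, or 12.9 and 13.8 per kb. A gene absent from the tables may have been under their lowest means or removed for another reason, and 9566 of 22380 annotated protein-coding genes (42.7%) were in neither table.

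The order of the 8 listed members per kb of exon was *Vim*, *Cdh2*, *Zeb1*, *Snai2*, *S100a4*, *Snai1*, *Zeb2* and *Tagln* in both tables. Since the tables are taken to share the control libraries, this is no independent repeat. The neighbours *Zeb1* and *Snai2*, and *Snai1* and *Zeb2*, lay close together on this scale. With the longest transcript as the length, *Zeb2* came before *Snai1*, and the level of *Zeb1* was 1.73 and 2.005 times that of *Snai2*. The median level of the 8 members was 42.0 per kb, beside 43.1 over all genes of the table with shRNA1. With the longest transcript as the length, these medians were 44.7 and 52.0. The 8 members spread from 2.06 to 1875 per kb, so their median describes few of them, and it leaves out *Acta2* and *Twist1*. Of the members, 2, *Vim* and *Cdh2*, lay in the top 10% of genes.

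**Figure D2:**
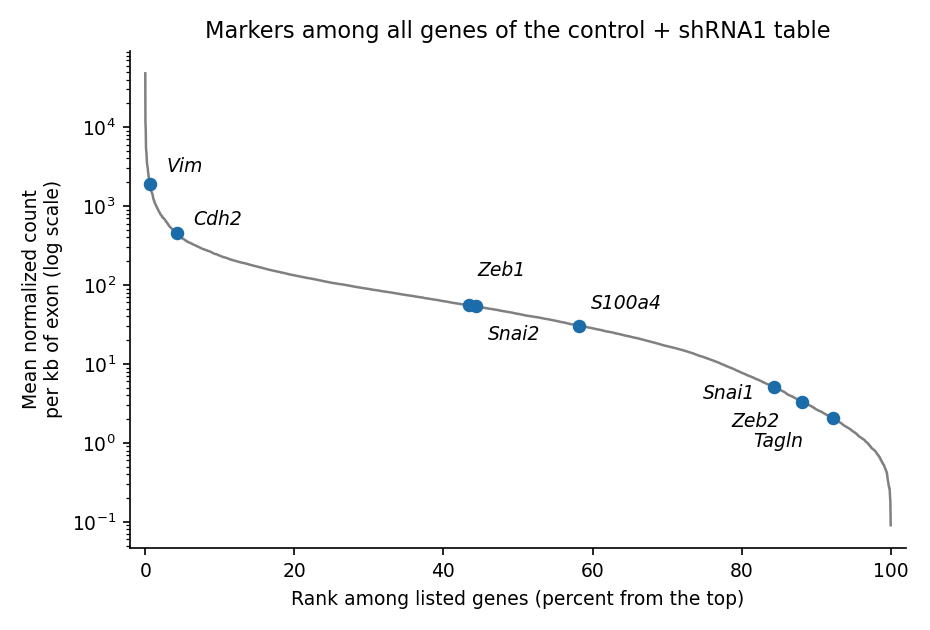
Level of every gene in the table with shRNA1 (grey line; vertical, mean normalized count per kb of exon, log scale) against its rank in percent from the top, with the 8 listed markers as points. *Vim* and *Cdh2* lie at 0.648% and 4.22%, *Zeb1*, *Snai2* and *S100a4* near the middle, and *Snai1*, *Zeb2* and *Tagln* beyond 84.3%.

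Reads shared with neighbouring genes concern few bases of the members. In GENCODE M1, *Tagln* shares 65 exon bases (4.10% of its exons) with *Pcsk7* on the opposite strand, and *Zeb2* shares 458 bases (2.98%) with the long noncoding RNA gene *Gm13476*, also on the opposite strand. *Zeb2* further shares 5 bases with an annotated microRNA on its own strand. The libraries were described as strand-specific, but the strand setting of the counting is not given in the sources used here. *Pcsk7* was listed and *Gm13476* was not. No other member had exon bases in common with another annotated gene.

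Lists of related genes place these levels. Of 36 further genes of the mesenchymal programme, 24 were listed in the table with shRNA1, with a median level of 333 per kb, and 14 of them were in the top 10% of genes. Among the 5 most abundant were *Ctgf* (level 3477 per kb), *Fn1*, the fibronectin gene (3408), *Itgb1*, the β1 integrin subunit gene (1452) and the receptor tyrosine kinase gene *Axl* (1065). The fibrillar collagen gene *Col1a1*, by contrast, had a level of 0.587 per kb, and *Col1a2*, *Col3a1*, *Mmp2*, *Lox* and *Prrx1* were among the 12 genes of this list without a value in that table. The share of all annotated protein-coding genes in neither table was 42.7%.

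Epithelial genes were present beside the mesenchymal markers. Of 26, 17 were listed, with a median level of 222 per kb. With the longest transcript as the length, this median was 377 and that of the further mesenchymal genes 378, so the lists are not ordered by their medians. *Krt18* and *Krt8*, the keratins of simple epithelia, had levels of 7034 and 4594 per kb, which were 3.75 and 2.45 times that of *Vim* in the table with shRNA1. *Krt19* (1537) and the claudin gene *Cldn2* (744) followed. *Epcam*, *Cldn1*, *Cldn3*, *Cldn4*, *Cldn7*, *Esrp1*, *Grhl2*, *Ovol1* and *Ovol2* were not listed. These were 9 of the 26, where 42.7% of all annotated protein-coding genes were in neither table. *Esrp1*, *Grhl2*, *Ovol1* and *Ovol2* are known as factors that maintain the epithelial state. Their relatives *Esrp2* and *Grhl1* were listed, with levels of 44.4 and 4.09 per kb in the table with shRNA1.

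The labelled cell type was checked against markers. Of 18 hepatocyte genes, 16 were listed, with a median level of 95.9 per kb. *Ttr* (2049), *Apob* (1449), *Alb* (1053), *Apoe* (359.9) and the hepatocyte transcription factor gene *Hnf4a* (298) were highest. *Cps1* (4.71) and *Tat* (1.82) were the lowest of those listed, and *Apoa2* and *Asgr1* were not listed. Of 14 genes of stellate cells and fibroblasts, 4 were listed, namely *Des*, *Rgs5*, *Col1a1* and *Gfap*, at levels from 0.536 to 2.14 per kb. The defining genes *Pdgfrb*, *Pdgfra*, *Dcn*, *Lum*, *Lrat* and *Thy1* were not. Of 6 smooth muscle genes, 4 were listed, of which *Smtn* was the highest at 191 per kb and *Cnn1*, *Des* and *Myocd* lay from 0.350 to 3.09, while *Myh11* was not listed. Of 9 leukocyte genes, *Cd14* (312 per kb), *Cd68*, *Csf1r* and *Ptprc* were listed, with *Ptprc* at 0.911 per kb, and of 8 endothelial genes *Vwf* alone, at 0.152. Of the 14 genes of stellate cells and fibroblasts, 10 were in neither table. The other 4 had pooled means under 10 in the table with shRNA1. Of all annotated protein-coding genes, 42.7% were in neither table. Which cells carried the RNAs of *Vim* and *Cdh2* was not tested.

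**Figure D3:**
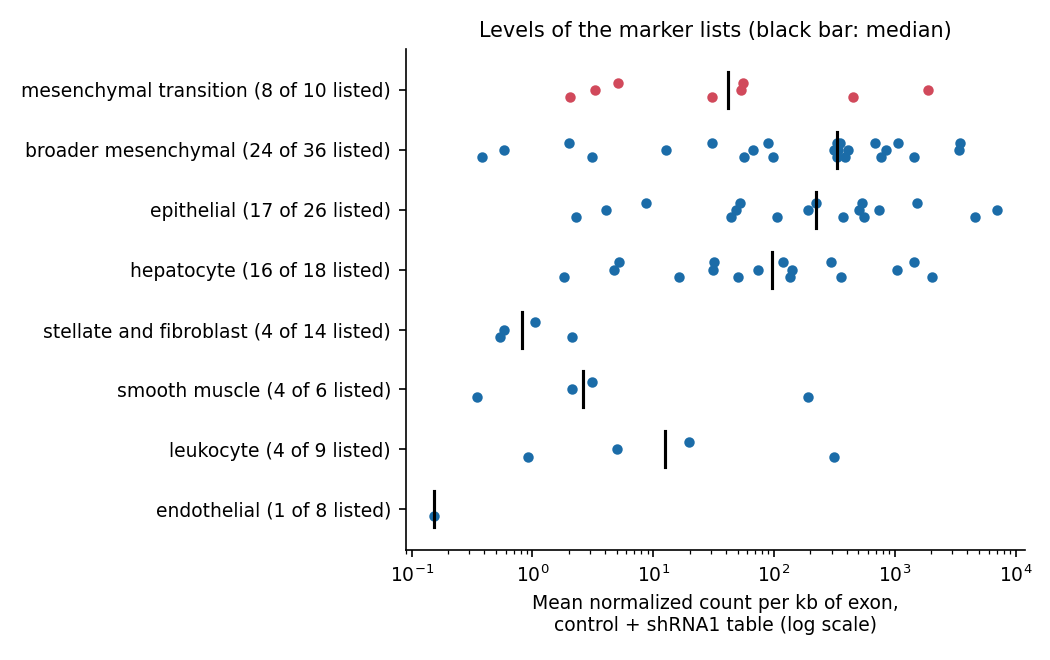
Level (mean normalized count per kb of exon in the table with shRNA1, log scale) of each listed gene of the mesenchymal transition markers and 7 comparison lists, with black bars for the medians. The markers spread from 2.06 to 1875, the epithelial genes have a median of 222, and the 4 listed stellate cell and fibroblast genes lie at or under 2.14.

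Comparing the tables asks whether the marker levels depend on which hairpin was pooled with the controls. Because the same control libraries enter both means, a ratio of the pooled means is closer to 1 than the ratio of the hairpin groups themselves. The tables also differ in scale, by a median log2 ratio of 0.07 over the 7757 genes whose means both reached 100, and this was subtracted. For the 11451 genes whose means both reached 10, the centred log2 ratio was -0.30 at the 5th and 0.29 at the 95th percentile. In the table with shRNA2, 6.44% of these genes were higher by more than 1.2-fold and 6.63% were lower. Of the 6 members with such means, 0 were higher and 0 lower by that fold, and their median log2 ratio was -0.06, beside 0.0043 over all 11451 genes. This count lies near the background and is no result about the members.

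The largest shift was that of *Snai2*, whose centred log2 ratio (shRNA2 table over shRNA1 table) was -0.20. A larger ratio in either direction was found for 21.0% of the 11451 genes. *S100a4* followed at -0.17, with 27.9% of genes further from 0. On the other side, *Zeb2* had a ratio of 0.14 on this log2 scale, and *Zeb1* had 0.01. The abundant members shifted little, with log2 ratios of -0.07 for *Vim* and -0.05 for *Cdh2*. *Snai1* and *Tagln*, whose means were under 10, had log2 ratios of 0.13 and -0.03. At 1.1-fold, *Snai2* and *S100a4* were lower and no member was higher, where 17.5% of all genes were lower and 18.4% higher. These calls depended on the centring. Without it, the log2 ratios were -0.13 for *Snai2* and -0.10 for *S100a4*, neither past 1.1-fold, and 0.20 for *Zeb2*, which was past it. None of the ratios has an error. The centred ratios of the 6 members with means of at least 10 all lay between the 5th and the 95th percentile of the genes counted.

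**Figure D4:**
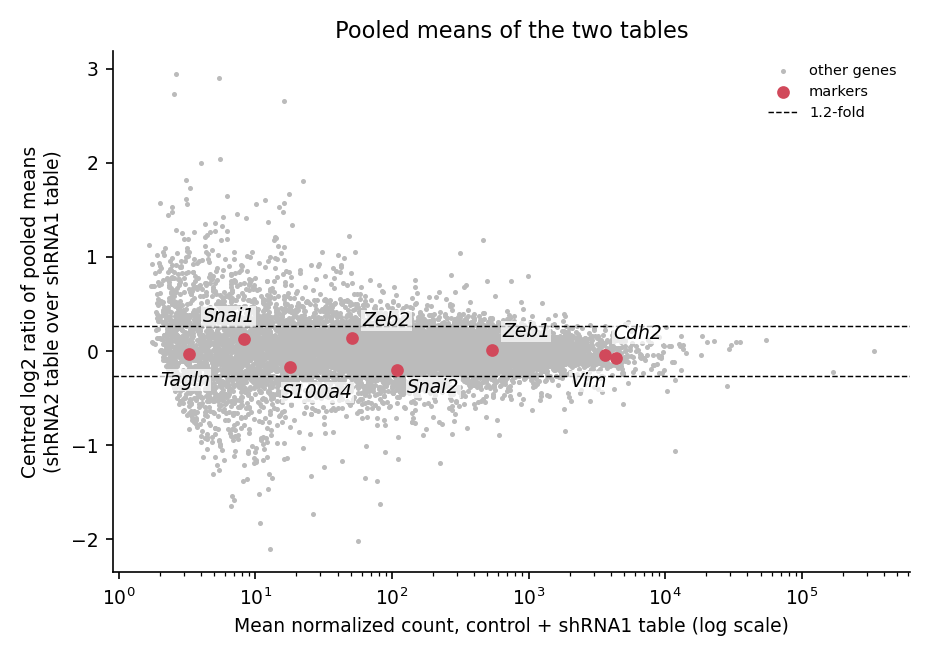
Centred log2 ratio of the pooled means (vertical; table with shRNA2 over table with shRNA1) against the mean normalized count in the table with shRNA1 (horizontal, log scale), for all genes in both tables (grey) and the 8 listed markers (red). Dashed lines mark 1.2-fold; the markers lie between -0.20 and 0.14, inside these lines.

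The partner genes shifted by similar amounts. *Cdh1* had a centred log2 ratio of 0.04, *Krt8* -0.15 and *Krt18* -0.21. Among the 20 further mesenchymal genes with means of at least 10, 1 was higher by more than 1.2-fold in the table with shRNA2, namely *Cd44* (log2 ratio 0.27), and 5 were lower, among them *Fn1*, *Axl*, *Tgfbr1* and *Tgfb2*, where 6.44% and 6.63% of all genes were higher and lower. This balance depended on the centring, since 3 genes were higher and 3 lower without it. *Cd44*, *Tgfbr1* and *Tgfb2* are named because they were among these few. *Tgfbr1*, the gene of a TGF-β receptor kinase, had the lowest log2 ratio of them, -0.53, from pooled means of 2037 and 1477, and *Fn1* had -0.37, from 28438 and 23047. Of the 16 epithelial genes, 1 was higher, the cingulin gene *Cgn* (0.42), and 0 were lower. Of the 14 hepatocyte genes, 2 were higher, among them *Serpina1a* (log2 ratio 0.36), and 4 were lower, *Fgb* (-0.60), *Cps1* (-0.46), *Alb* (-0.31) and *Apoh* (-0.27). Without centring, 2 epithelial genes were higher and 0 lower, and 2 hepatocyte genes were higher and 2 lower.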

How the data were processed

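RNA was sequenced from AML12 cells in 9 libraries, which the sample titles place in 3 groups of 3. The labels of 2 control libraries name tables of further hairpins, and both tables are taken to share all 3 controls. According to the paper's methods and the labels, the authors trimmed the reads, aligned them to mm9 by TopHat2, discarded multiply mapped and discordant reads, obtained counts for GENCODE M1 genes by HTSeq and ran DESeq2 (version 1.8.2). The deposited signal per gene is a mean of counts divided by size factors over the 6 libraries of a table. The 5 columns of the authors' own comparison (fold change, its error, statistic, p-value and adjusted p-value) were not used, so no test, replicate error or check of the knockdown could be had. Depth of single libraries is unknown.

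All 13643 identifiers matched GENCODE M1, which is on NCBIM37, the assembly of mm9. Means were divided by the union of exons. The tables' scale was centred on the median log2 ratio of genes with means of at least 100, and folds of 1.2 were counted at means of at least 10. Named genes are the members, *Srrm2*, fixed partner genes and the 5 highest of each list, with exceptions stated, and some genes of the lists are not reported here. Genes of the marker lists that lie at the ends of a range, differ by 1.2-fold or are not listed were named after their values were seen. Members and lists were chosen with earlier results of these data known. Alternatives were another length, protein-coding genes alone for ranks, other centres, minimum means and folds. The counts of the comparison lists without centring were added after the data were seen. Python 3.11.15, numpy 2.4.6, pandas 2.3.3, scipy 1.17.1 and matplotlib 3.10.9 were used.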

Additional observations from a re-analysis of the deposited data

How the results depend on the processing

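No paired analysis was possible because the values used are pooled over libraries, and for the same reason no replicate was left out. With the longest transcript as the length, levels per kb in the tables with shRNA1 and shRNA2 were 1996 and 1988 for *Vim*, 748 and 760.2 for *Cdh2*, 92.3 and 97.7 for *Zeb1* and 5.60 and 6.45 for *Zeb2*, and list medians were 378 (broader mesenchymal), 377 (epithelial) and 112 (hepatocyte). Among protein-coding genes alone, ranks in percent from the top were 61.0 and 63.5 for *S100a4*, 92.8 and 92.8 for *Tagln*, 86.1 and 85.1 for *Snai1*, 46.7 and 50.4 for *Snai2*, 45.8 and 45.3 for *Zeb1* and 89.3 and 88.6 for *Zeb2*. Without centring, the log2 ratio was -0.0060 for *Vim* and 0.0227 for *Cdh2*. The signs of *Cdh2* and *Tagln* (0.03) changed, and 1274 genes were higher and 453 lower by 1.2-fold. In the comparison lists, a count added after the data were seen, it gave 3 higher and 3 lower broader mesenchymal, 2 and 0 epithelial and 2 and 2 hepatocyte genes. A minimum mean of 100 gave 243 higher and 334 lower, no minimum 1253 and 1204, a fold of 1.1 gave 2102 and 1999, with 2 members lower, and a fold of 1.5 gave 99 and 82. The other centres, namely the median of all genes and the ratio of summed means, changed the sign of no member's ratio. No error of the ratios was available against which to judge the shifts. The pooled means set no limit of detection for a library.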
